A study of Mus musculus with 6 samples.

Results

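Ribosome biogenesis factors are the proteins that trim, modify, fold and export ribosomal RNA while it is built into subunits. Here they are the genes that the deposited table annotates with the pathway term "Ribosome biogenesis in eukaryotes". The term marked 75 of 21878 rows, whatever their expression. Their RNA was measured by mRNA sequencing of NIH3T3 cells, an immortal mouse fibroblast line first made from embryos, which carried a radiation injury in both groups per the labels. Cells treated with exosomes (3 libraries) were compared with cells given PBS, phosphate-buffered saline (3 libraries), all at 72 h. The exosomes, small membrane vesicles that cells shed, were derived from plasma according to the series title. Neither the radiation dose nor the source and dose of the plasma vesicles is labelled. Nor do the labels say whether the libraries of a group are separate cultures, so each p-value reflects only how far these libraries spread, possibly for technical reasons. All 6 libraries come from a single cell line.

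In eukaryotes, RNA polymerase I makes a long precursor of ribosomal RNA in the nucleolus. Small nucleolar ribonucleoproteins (snoRNPs) modify it, and a large assembly known as the small subunit processome folds and cuts it to release the future small subunit. GTPases, ATPases and export factors remodel the future large subunit and carry both subunits to the cytoplasm. The transcription factor Myc is a known activator of many of these genes, and the pathway is known to be active in growing fibroblasts.

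Estimated depth was 18800000 to 22000000 counted reads per library. Levels are given as FPKM, which divides fragments by the length of the transcript and by sequencing depth. The lowest value of any of 10 fibroblast markers in any library was 37.99 FPKM, for Pdgfrb, and their sum was 7445.8 to 7719.7 FPKM with exosomes and 6319.7 to 6694.1 FPKM with PBS. These 10 markers did not move one way: 5 rose (Col1a1, Col1a2, Col3a1, Dcn and Pdgfra), 3 fell (Fn1, S100a4 and Pdgfrb) and 2 did not pass (Thy1 and Vim). Of the markers of other cell types, Cd3e of T cells, Alas2 of red cell precursors, Krt5 of basal epithelium and Ttr of hepatocytes were listed at 0 in all 6. The others were not. The leukocyte marker Cd14 reached 7.10 FPKM and the platelet marker Gp1bb 6.96 FPKM in 1 library. Csf1r of the leukocyte list averaged 0.295 FPKM with exosomes and 1.92 FPKM with PBS. The summed level of 9 leukocyte markers was 4.46 to 5.32 FPKM with exosomes and 7.41 to 11.996 FPKM with PBS. That of 9 erythroid and platelet markers was 10.04 to 12.2 FPKM with exosomes and 7.99 to 9.999 FPKM with PBS, and 2 of the 9 genes in each list passed the filter on low values. The sums of epithelial, endothelial and hepatocyte markers were at most 0.547 FPKM in each library. The part of these sums in the results below was not tested.

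Many ribosome biogenesis genes were lower in exosome-treated cells, by modest amounts. Of the 75 genes, 68 reached 1 FPKM in at least 3 libraries and were tested, and all 68 reached it in all 6. Of these, 32 (47.1%) fell and 1 rose (limma on log2(FPKM + 1), adjusted p under 0.05 over all 10274 genes tested, two-sided), while 35 did not pass. Of all genes tested, 18.4% fell and 25.4% rose, 43.8% in either direction, so that 58.0% of these calls were rises, against 47.9% of the calls in the authors' deposited table. The median log2 change, exosomes over PBS, was −0.16 over the 68 genes and 0.04 over all genes tested. The 32 lowered genes changed by −0.58 to −0.15, with a median of −0.32. The largest fall was that of Gnl3, and the only call in the other direction was that of Drosha, which did not hold when any single library was left out.

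Summed over the pathway, the level was 1323, 1295 and 1339.6 FPKM in the exosome libraries, against 1588, 1497 and 1539 FPKM in the PBS libraries. The groups did not overlap in this sum, which made up 0.428% to 0.433% of all FPKM with exosomes and 0.489% to 0.524% with PBS. Among single genes, 40 of the 68 had all 3 exosome values below all 3 PBS values, 3 had them above and 25 overlapped. Of all genes tested, 23.5% lay wholly below and 32.0% wholly above. Fewer cells that express a gene and less of its RNA per cell cannot be told apart in such bulk libraries.

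**Figure D1:**
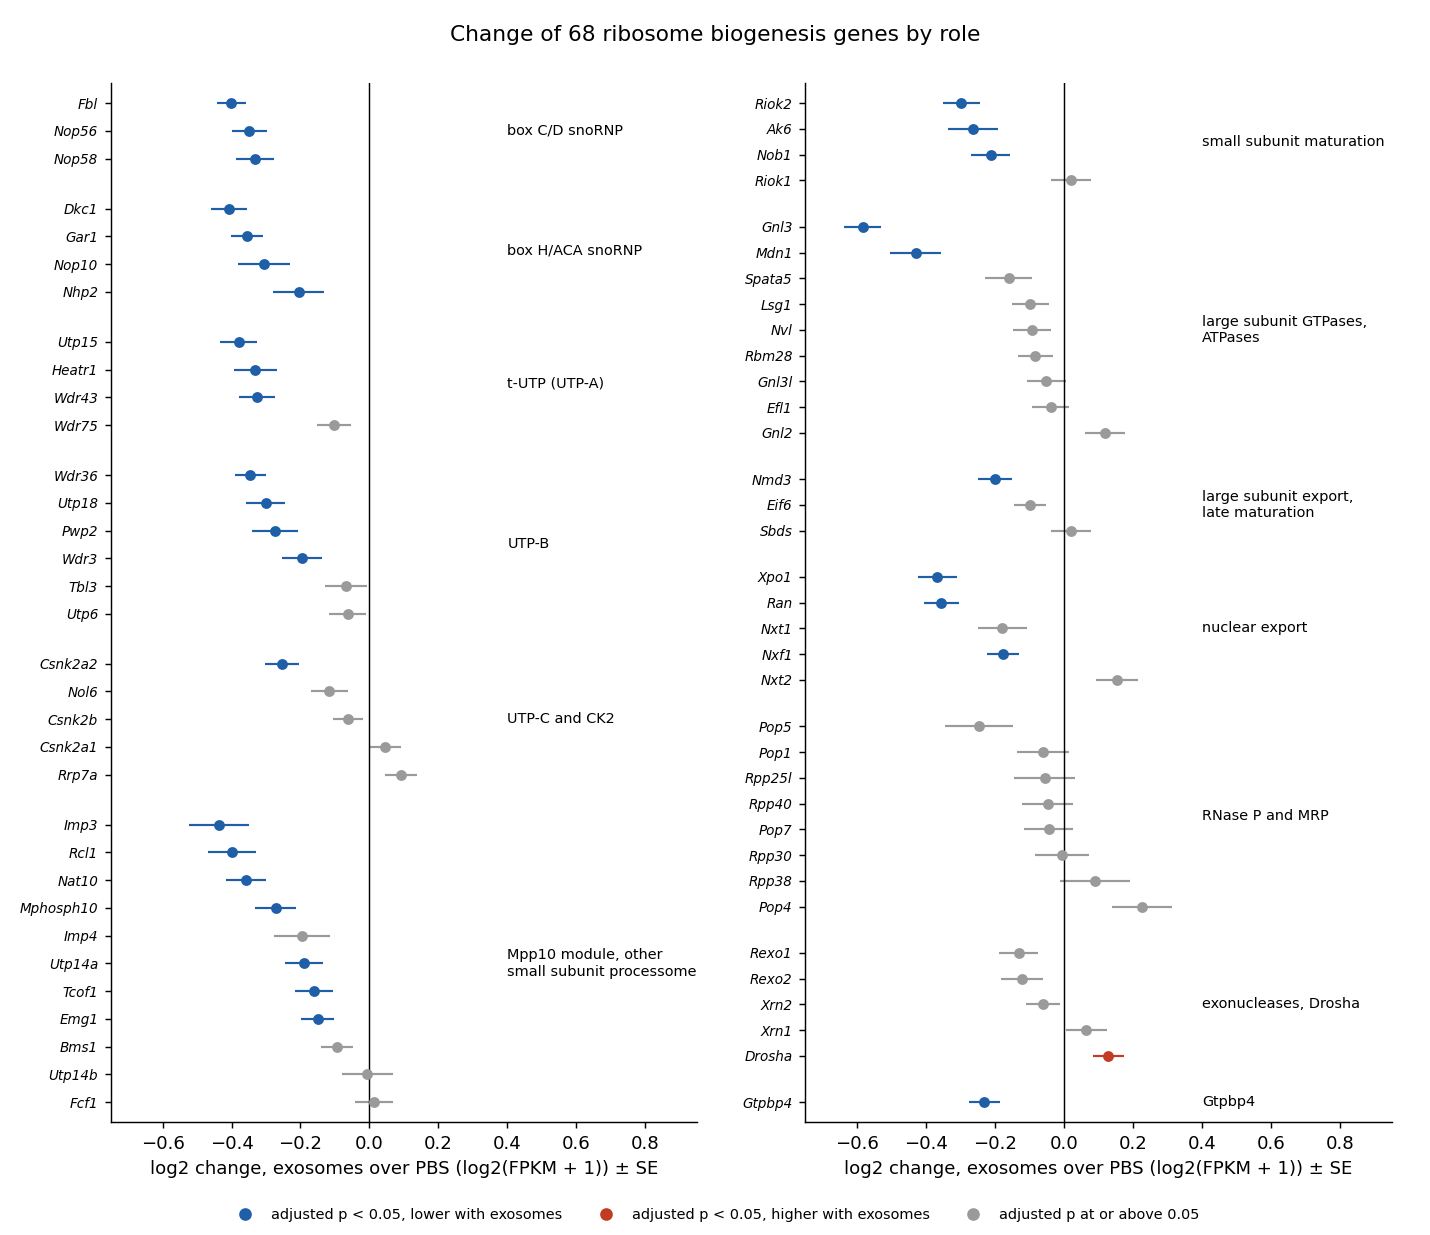
Log2 change of exosomes over PBS on the log2(FPKM + 1) scale, with its standard error, for the 68 tested genes grouped by role (horizontal axis, change; vertical axis, gene). Blue marks the 32 genes that fell, red the single gene that rose (Drosha) and grey the 35 that did not pass an adjusted p of 0.05; the snoRNP and t-UTP genes sit furthest to the left as groups.

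Of the 68 changes, 57 were below zero and 11 above. A log2 change under −0.2 was found in 27 of the 68 genes, against 15.6% of all genes tested, and under −0.3 in 18, against 8.74%. A change under −0.4 was found in 5 of the 68 genes, against 5.01%. Under −0.5 there was 1 of the 68, against 3.17% of all genes tested. The counts under −0.4 and −0.5 are too small to set the pathway apart from all genes. Of the 34 members with the higher mean level, 19 fell, and of the 34 with the lower mean level 13 did. In the authors' deposited table, which rests on read counts, 35 of 72 members with an adjusted p were lower with exosomes and 0 were higher at an adjusted p under 0.05, where 13.5% of its 15844 genes were lower and 12.4% higher. Among its 10262 genes that were also tested here, 19.8% were lower and 16.8% higher. Both tests called 31 of the members lower.

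**Figure D2:**
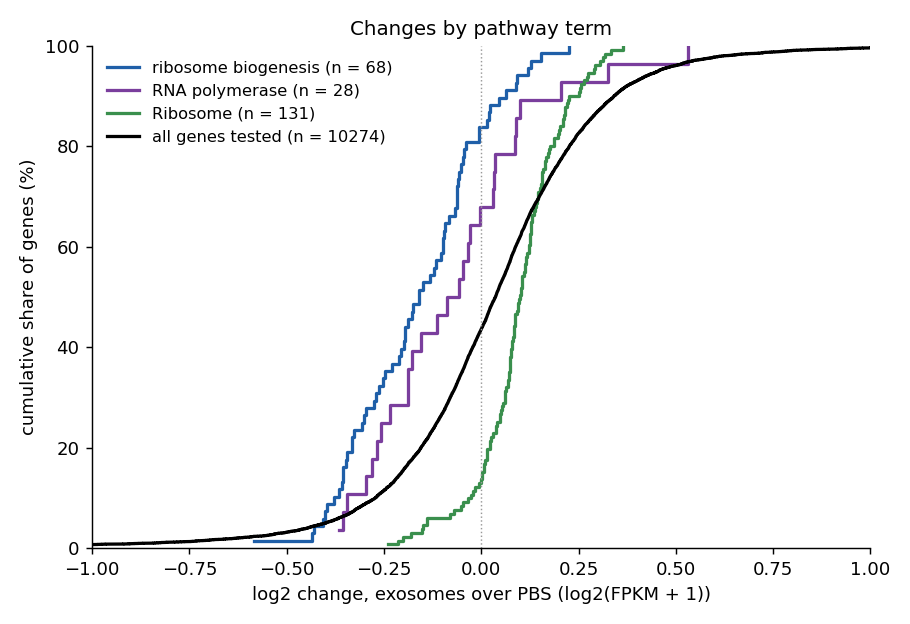
Cumulative share of tested genes (vertical axis, %) up to each log2 change of exosomes over PBS (horizontal axis, log2(FPKM + 1) scale) for the ribosome biogenesis genes, the genes of the RNA polymerase and Ribosome terms and all genes tested. The ribosome biogenesis curve lies left of the others around its median of −0.16, the Ribosome curve around 0.10, and beyond −0.5 the curve of all genes is the higher.

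The promoters of 4 lowered members are shown because their genes fell together and because CACGTG, the E-box to which Myc and its partner Max are known to bind, is found in some of them and not in others. They are that of Gnl3, the member of smallest p, and those of Ran, Wdr43 and Mdn1, the lowered members of smallest p with the motif. Each runs 5′ to 3′ over 300 bases, from 250 before to 50 after the annotated start, as given by RefSeq on GRCm38.p6. Capitals mark CACGTG, which reads the same on both strands.
Gnl3, chr14:31019082-31019381, minus strand: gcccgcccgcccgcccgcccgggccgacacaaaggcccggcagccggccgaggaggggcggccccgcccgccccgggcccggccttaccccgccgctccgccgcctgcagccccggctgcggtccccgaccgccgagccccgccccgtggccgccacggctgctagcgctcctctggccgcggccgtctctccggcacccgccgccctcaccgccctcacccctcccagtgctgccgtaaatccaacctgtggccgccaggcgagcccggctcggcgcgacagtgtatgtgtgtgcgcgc
Ran, chr5:129019906-129020205, plus strand: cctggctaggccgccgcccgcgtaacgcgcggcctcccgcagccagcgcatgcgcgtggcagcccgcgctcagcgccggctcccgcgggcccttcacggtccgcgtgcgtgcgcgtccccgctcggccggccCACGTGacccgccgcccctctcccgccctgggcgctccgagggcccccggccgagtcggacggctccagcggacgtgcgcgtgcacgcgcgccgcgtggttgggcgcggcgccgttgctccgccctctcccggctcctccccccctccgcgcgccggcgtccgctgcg
Wdr43, chr17:71615965-71616264, plus strand: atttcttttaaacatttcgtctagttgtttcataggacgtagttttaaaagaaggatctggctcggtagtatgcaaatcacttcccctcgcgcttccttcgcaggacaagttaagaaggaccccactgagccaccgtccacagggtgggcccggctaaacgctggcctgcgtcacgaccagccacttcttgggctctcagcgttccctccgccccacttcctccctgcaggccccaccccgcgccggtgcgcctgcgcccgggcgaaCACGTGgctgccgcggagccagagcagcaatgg
Mdn1, chr4:32656869-32657168, plus strand: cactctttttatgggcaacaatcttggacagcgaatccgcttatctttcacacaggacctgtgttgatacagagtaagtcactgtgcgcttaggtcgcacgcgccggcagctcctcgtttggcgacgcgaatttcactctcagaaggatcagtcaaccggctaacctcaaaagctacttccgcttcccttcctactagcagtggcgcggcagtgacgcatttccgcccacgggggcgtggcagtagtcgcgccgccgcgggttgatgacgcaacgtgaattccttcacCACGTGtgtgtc
The motif began at position −118 from the start in Ran, at 17 in Wdr43 and at 38 in Mdn1, and these letters were not in the Gnl3 window. RefSeq promoters were matched for 62 of the 75 members, 56 of them tested. CACGTG was present in 11 of these 56 genes (19.6%), against 12.3% of the 8351 tested genes with a promoter and 8.09% of all 27025 genes with one. It was found in 5 of 29 lowered members (17.2%) and in 6 of 27 members that were not lowered (22.2%), and the median log2 change was −0.20 for members with it and −0.19 for members without. Of the other motifs searched on both strands, the ETS core CCGGAAG was found in 33.9% of tested members and 22.2% of tested genes, the YY1 core ATGGCGG in 7.14% and 10.5%, and the NRF1 half-site GCGCATG in 8.93% and 8.71%.

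All 3 tested members of the box C/D snoRNP, the particle that adds methyl groups to ribose at sites chosen by its guide RNA, fell with exosomes. A further box C/D gene, Nhp2l1, was not marked by the pathway term and is given below. Fbl, the methyltransferase itself, had 65.9, 62.3 and 62.1 FPKM with exosomes, against 82.95, 85.6 and 83.6 FPKM with PBS (log2 change −0.40 ± 0.04, adjusted p = 0.00011). The gap between the groups was wider than the range within either. Nop56, a core scaffold protein, had 50.2, 49.7 and 50.8 FPKM with exosomes, against 68.6, 60.6 and 63.6 FPKM with PBS (log2 change −0.35 ± 0.05, adjusted p = 0.000612). Nop58, its paralogous partner in the particle, had 39.2, 44.01 and 44.99 FPKM with exosomes, against 54.99, 53.3 and 53.5 FPKM with PBS (log2 change −0.33 ± 0.06, adjusted p = 0.00134). The median of the 3 changes was −0.35.

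The box H/ACA snoRNP, which converts uridine to pseudouridine, had 4 of 4 genes lowered and a median log2 change of −0.33. Dkc1, dyskerin, the pseudouridine synthase, had 15.4, 16.2 and 16.2 FPKM with exosomes, against 22.5, 20.1 and 21.8 FPKM with PBS (log2 change −0.41 ± 0.05, adjusted p = 0.000347). Gar1, which helps substrate turnover, had 21.4, 20.3 and 19.7 FPKM with exosomes, against 26.4, 26.8 and 26.2 FPKM with PBS (log2 change −0.36 ± 0.05, adjusted p = 0.000353). In both genes every exosome library was below every PBS library. Nop10, a small structural subunit, had 57.3, 49.4 and 60.2 FPKM with exosomes, against 70.5, 63.6 and 72.5 FPKM with PBS (log2 change −0.31 ± 0.08, adjusted p = 0.0106), with the second exosome library lowest. Nhp2, the RNA-binding subunit, had 42.4, 41.6 and 41.2 FPKM with exosomes, against 54.5, 42.97 and 47.97 FPKM with PBS (log2 change −0.21 ± 0.07, adjusted p = 0.049). Its PBS values were spread more widely than its exosome values. The call of Nhp2 was lost without PBS replicate 1 (adjusted p = 0.156), PBS replicate 3 (adjusted p = 0.0876) or exosome replicates 1, 2 or 3 (adjusted p = 0.0907, 0.111 and 0.117). It was also lost without a filter on low values, with upper quartile scaling or without limma's trend and robust estimation (adjusted p = 0.113, 0.0598 and 0.0691).

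**Figure D3:**
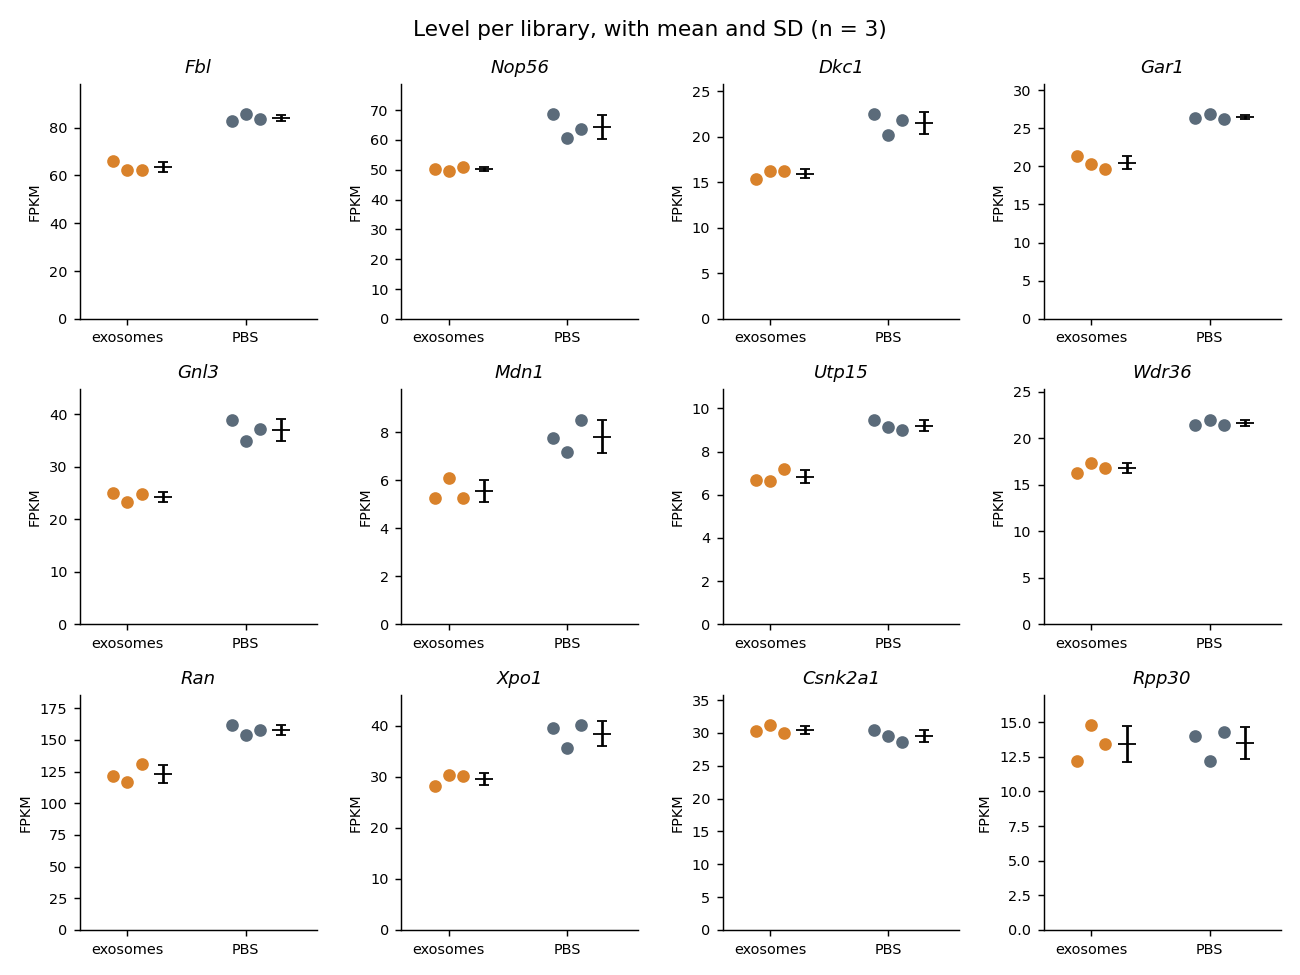
Level in each library (vertical axis, FPKM, from 0) of 10 lowered genes and of Csnk2a1 and Rpp30, which did not pass, in exosome (left) and PBS (right) libraries, with the mean and SD of n = 3 beside each group. In the 10 lowered genes every exosome library lies below every PBS library, whereas in Csnk2a1 and Rpp30 the groups overlap.

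The t-UTP group, also called UTP-A, binds the start of the precursor and is known to link its transcription to its processing. Of 4 tested members 3 fell, with a list median of −0.33. Utp15, a WD-repeat subunit, had 6.68, 6.66 and 7.18 FPKM with exosomes, against 9.47, 9.13 and 8.99 FPKM with PBS (log2 change −0.38 ± 0.05, adjusted p = 0.000496). Wdr43, the mouse counterpart of yeast Utp5, had 26.2, 26.4 and 25.7 FPKM with exosomes, against 35.2, 32.2 and 31.5 FPKM with PBS (log2 change −0.33 ± 0.05, adjusted p = 0.000962). Heatr1, the large HEAT-repeat subunit, averaged 8.305 ± 0.281 FPKM with exosomes and 10.7 ± 0.830 FPKM with PBS (SD, n = 3 each; log2 change −0.33 ± 0.06, adjusted p = 0.00251). In these 3 genes all exosome values were below all PBS values. Wdr75 averaged 19.2 ± 0.767 FPKM with exosomes and 20.7 ± 0.716 FPKM with PBS (log2 change −0.10 ± 0.05, adjusted p = 0.122) and did not pass, although its exosome values lay below its PBS values. In the authors' deposited table Wdr75 was called lower (adjusted p = 0.0355).

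UTP-B, a complex of WD-repeat proteins that joins the precursor together with the U3 snoRNP, showed 4 of 6 genes lowered and a median of −0.23. Wdr36, a WD-repeat subunit, had 16.3, 17.4 and 16.8 FPKM with exosomes, against 21.5, 21.998 and 21.4 FPKM with PBS (log2 change −0.34 ± 0.05, adjusted p = 0.000366). Utp18, another subunit of this kind, had 8.42, 8.49 and 8.86 FPKM with exosomes, against 11.7, 10.4 and 10.5 FPKM with PBS (log2 change −0.30 ± 0.06, adjusted p = 0.00274). Both genes were lower in every exosome library than in any PBS library. Pwp2 averaged 7.37 ± 0.402 FPKM with exosomes and 9.13 ± 0.717 FPKM with PBS (log2 change −0.27 ± 0.07, adjusted p = 0.0085) and Wdr3 averaged 9.31 ± 0.574 FPKM with exosomes and 10.8 ± 0.402 FPKM with PBS (log2 change −0.20 ± 0.06, adjusted p = 0.0209). Wdr3 lost its call without exosome replicate 1 (adjusted p = 0.0723) or PBS replicate 1 (adjusted p = 0.0822). The remaining subunits, Tbl3 and Utp6, had log2 changes of −0.07 ± 0.06 and −0.06 ± 0.05, with overlapping groups.

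UTP-C with protein kinase CK2, which in yeast forms part of the same complex, had 1 of 5 genes lowered and a median of −0.06. That share, 20%, is close to the 18.4% of all genes tested. Csnk2a2, a catalytic subunit of CK2, had 8.61, 8.84 and 9.02 FPKM with exosomes, against 11.03, 10.4 and 10.7 FPKM with PBS (log2 change −0.25 ± 0.05, adjusted p = 0.00304). Its paralogue Csnk2a1 averaged 30.5 ± 0.621 FPKM with exosomes and 29.5 ± 0.909 FPKM with PBS (log2 change 0.05 ± 0.04, adjusted p = 0.43), and the 95% interval of its log2 change was −0.05 to 0.15. Csnk2b, the regulatory subunit, had 32.8, 30.8 and 32.1 FPKM with exosomes, against 33.6, 33.3 and 33.1 FPKM with PBS (log2 change −0.06 ± 0.04, adjusted p = 0.272). The catalytic paralogues thus differed in their calls, but the difference between their changes was not tested. Nol6, the counterpart of yeast Utp22, had 9.98, 10.2 and 10.6 FPKM with exosomes, against 11.3, 10.6 and 11.6 FPKM with PBS (log2 change −0.12 ± 0.05, adjusted p = 0.102), and Rrp7a, its partner, averaged 25.1 ± 0.969 FPKM with exosomes and 23.5 ± 0.0316 FPKM with PBS (log2 change 0.09 ± 0.05, adjusted p = 0.132). Nol6 was called without PBS replicate 2 (adjusted p = 0.0499) and in the authors' deposited table (adjusted p = 0.0205). Csnk2a1 has named pseudogenes and an exon of Rrp7a overlaps another gene, so these levels are less certain.

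Among 11 genes of the Mpp10 module and other small subunit processome factors, 7 fell and the median was −0.19. Nat10, which acetylates cytidines of the small subunit RNA, had 7.21, 7.25 and 6.79 FPKM with exosomes, against 9.87, 8.83 and 9.39 FPKM with PBS (log2 change −0.36 ± 0.06, adjusted p = 0.00101). Rcl1, related to RNA cyclases, had 9.87, 8.16 and 8.75 FPKM with exosomes, against 11.6, 11.9 and 12.7 FPKM with PBS (log2 change −0.40 ± 0.07, adjusted p = 0.00167). In both, every exosome library was below every PBS library. Imp3 averaged 31.5 ± 4.16 FPKM with exosomes and 42.8 ± 2.07 FPKM with PBS (log2 change −0.44 ± 0.09, adjusted p = 0.00389) and Mphosph10, its partner in the module, averaged 10.2 ± 0.443 FPKM with exosomes and 12.5 ± 0.837 FPKM with PBS (log2 change −0.27 ± 0.06, adjusted p = 0.00553). Imp3 had the second most negative change of the pathway, but also 1 exosome library well below the other two. The third protein of the module, Imp4, averaged 14.1 ± 0.848 FPKM with exosomes and 16.3 ± 2.08 FPKM with PBS (log2 change −0.20 ± 0.08, adjusted p = 0.0805). It did not pass, and it did without PBS replicate 2 (adjusted p = 0.0435) or with median of ratios scaling (adjusted p = 0.0477).

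The other lowered processome factors fell by smaller amounts. Emg1, a methyltransferase of a pseudouridine in the small subunit RNA, had 35.4, 34.1 and 36.5 FPKM with exosomes, against 39.5, 40.7 and 37.8 FPKM with PBS (log2 change −0.15 ± 0.05, adjusted p = 0.0276). Utp14a, which in yeast activates the helicase that removes U3, averaged 6.91 ± 0.335 FPKM with exosomes and 8.02 ± 0.281 FPKM with PBS (log2 change −0.19 ± 0.06, adjusted p = 0.0205). Tcof1, treacle, a nucleolar protein also tied to RNA polymerase I, averaged 10.1 ± 0.605 FPKM with exosomes and 11.4 ± 0.233 FPKM with PBS (log2 change −0.16 ± 0.05, adjusted p = 0.0379). The groups were close to each other in all of them. Utp14a lost its call without exosome replicate 1 (adjusted p = 0.0695) or PBS replicate 1 (adjusted p = 0.0785). Emg1 lost its call without exosome replicates 1 or 2 (adjusted p = 0.0605 and 0.0961) or PBS replicates 1 or 2 (adjusted p = 0.0804 and 0.0766). Tcof1 lost it without exosome replicates 1 or 2 (adjusted p = 0.121 and 0.0542), without PBS replicates 1, 2 or 3 (adjusted p = 0.108, 0.0793 and 0.0501), without a filter on low values (adjusted p = 0.0577) and with upper quartile scaling (adjusted p = 0.0595). With replicate number added to the fit, Utp14a, Emg1 and Tcof1 each lost the call (adjusted p = 0.0508, 0.0696 and 0.0714). The remaining genes were the GTPase Bms1 (−0.10 ± 0.05), the nuclease Fcf1 (0.01 ± 0.06) and Utp14b (−0.01 ± 0.07), none of which passed. The count of lowered genes in the list was 4 without exosome replicate 1 and 4 without PBS replicate 1.

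In the maturation of the small subunit after its release, 3 of 4 genes fell, with a median of −0.24. Riok2, an atypical kinase of the late precursor particle, had 14.8, 14.8 and 15.3 FPKM with exosomes, against 19.5, 19.1 and 17.4 FPKM with PBS (log2 change −0.30 ± 0.05, adjusted p = 0.00196). Nob1, the nuclease that makes the final cut at the 3′ end of the small subunit RNA, had 16.4, 16.6 and 17.8 FPKM with exosomes, against 20.6, 20.3 and 18.4 FPKM with PBS (log2 change −0.21 ± 0.06, adjusted p = 0.0136). The groups did not overlap in either gene, though they came close in Nob1. Ak6, an adenylate kinase needed for that cut in yeast, averaged 10.8 ± 1.001 FPKM with exosomes and 13.2 ± 0.941 FPKM with PBS (log2 change −0.26 ± 0.07, adjusted p = 0.0158). Riok1, another kinase of the same family, averaged 8.65 ± 0.232 FPKM with exosomes and 8.52 ± 0.564 FPKM with PBS (log2 change 0.02 ± 0.06, adjusted p = 0.784) and the groups overlapped. Nob1 lost its call without PBS replicate 1 (adjusted p = 0.059), and Ak6 lost it without PBS replicate 1 (adjusted p = 0.0666) or exosome replicate 2 (adjusted p = 0.0587). Ak6 was not called in the authors' deposited table (adjusted p = 0.0778), and 56.5% of its exonic length is shared with Taf9 on the same strand, so reads of the 2 genes may be mixed. Without PBS replicate 1 the list had 1 lowered gene.

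Of 9 GTPases, ATPases and associated factors annotated for the assembly of the large subunit, 2 (22.2%) fell, a share close to the 18.4% of all genes tested that fell, and the list median was −0.09. Gnl3, nucleostemin, a nucleolar GTPase first described in stem cells, had 24.996, 23.3 and 24.8 FPKM with exosomes, against 38.96, 34.8 and 37.2 FPKM with PBS (log2 change −0.58 ± 0.05, adjusted p = 4.59e-05). The gap between the groups was wider than the range within either, and the ratio of the means was 0.658. Mdn1, a very large ATPase that strips assembly factors from the particle, had 5.29, 6.09 and 5.28 FPKM with exosomes, against 7.78, 7.18 and 8.53 FPKM with PBS (log2 change −0.43 ± 0.07, adjusted p = 0.00157). The relatives of Gnl3 were not called, and the differences between their changes and that of Gnl3 were not tested. Gnl2 averaged 22.8 ± 0.465 FPKM with exosomes and 20.9 ± 1.604 FPKM with PBS (log2 change 0.12 ± 0.06, adjusted p = 0.125), and Gnl3l averaged 21.04 ± 1.48 FPKM with exosomes and 21.8 ± 0.381 FPKM with PBS (log2 change −0.05 ± 0.06, adjusted p = 0.485). The 95% intervals of these log2 changes were −0.01 to 0.25 for Gnl2 and −0.18 to 0.07 for Gnl3l, against −0.70 to −0.46 for Gnl3. The ATPases Spata5 and Nvl had log2 changes of −0.16 ± 0.07 and −0.09 ± 0.05, the GTPases Lsg1 and Efl1 had log2 changes of −0.10 ± 0.05 and −0.04 ± 0.05, and the RNA-binding protein Rbm28 had one of −0.08 ± 0.05, none past the test. Spata5 passed without PBS replicate 2 (adjusted p = 0.0187).

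Gtpbp4, a GTPase that binds the large subunit precursor early, had 13.9, 14.2 and 13.97 FPKM with exosomes, against 16.96, 16.1 and 16.9 FPKM with PBS (log2 change −0.23 ± 0.05, adjusted p = 0.00339). It fell, with no overlap between the groups, but it has named pseudogenes, which makes its level less certain. In the late steps, 1 of 3 genes fell, a count too small to set against the 18.4% of all genes tested that fell. Nmd3, the adaptor that joins the large subunit to its exporter, had 28.3, 29.3 and 28.8 FPKM with exosomes, against 35.2, 32.1 and 32.4 FPKM with PBS (log2 change −0.20 ± 0.05, adjusted p = 0.00934). Eif6, which keeps new large subunits from joining small ones, had 40.1, 39.8 and 43.4 FPKM with exosomes, against 44.3, 44.2 and 43.7 FPKM with PBS (log2 change −0.10 ± 0.05, adjusted p = 0.114), with its exosome values below its PBS values by a small margin. Sbds, which with Efl1 releases Eif6 and is mutated in Shwachman-Diamond syndrome, averaged 22.04 ± 1.12 FPKM with exosomes and 21.7 ± 1.34 FPKM with PBS (log2 change 0.02 ± 0.06, adjusted p = 0.792). Eif6 passed only with median of ratios scaling among the settings tried (adjusted p = 0.0421).

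Of 9 genes of nuclear export 5 were tested, 3 of these fell and the median was −0.18. Ran, the small GTPase that drives nuclear transport and the most abundant gene of the pathway, had 122, 117 and 131 FPKM with exosomes, against 162, 154 and 158 FPKM with PBS (log2 change −0.36 ± 0.05, adjusted p = 0.000592). Xpo1, the exporter that carries both subunits, had 28.1, 30.4 and 30.1 FPKM with exosomes, against 39.6, 35.5 and 40.1 FPKM with PBS (log2 change −0.37 ± 0.06, adjusted p = 0.000888). For both genes the exosome libraries were all below the PBS libraries, and the third exosome library was the highest of its group for Ran. Nxf1, the main exporter of messenger RNA, averaged 39.3 ± 0.491 FPKM with exosomes and 44.6 ± 1.91 FPKM with PBS (log2 change −0.18 ± 0.05, adjusted p = 0.0115) and lost its call without PBS replicate 1 (adjusted p = 0.0532). Its partners Nxt1 and Nxt2 had log2 changes of −0.18 ± 0.07 (adjusted p = 0.0655) and 0.15 ± 0.06 (adjusted p = 0.0658). Nxt1 passed without exosome replicate 1 (adjusted p = 0.0263) and without PBS replicate 2 (adjusted p = 0.0357). With median of ratios scaling Nxt1 passed as well (adjusted p = 0.0386), and the authors' deposited table called it lower (adjusted p = 0.0335). Nxt2 passed with upper quartile scaling (adjusted p = 0.0413).

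RNase P and RNase MRP, which cut precursors of transfer RNA and of ribosomal RNA and share most of their protein subunits, had no call. Of 8 tested subunits 0 passed (limma; at an unadjusted p under 0.05 there were 2, Pop4 and Pop5, and the authors' deposited table called 0), and the median change was −0.05. Pop4 had 3.93, 3.93 and 3.35 FPKM with exosomes, against 3.43, 3.13 and 2.62 FPKM with PBS (log2 change 0.23 ± 0.09, adjusted p = 0.0602). Pop5 had 10.4, 9.56 and 8.11 FPKM with exosomes, against 12.8, 10.1 and 11.01 FPKM with PBS (log2 change −0.25 ± 0.10, adjusted p = 0.0719). These lay on opposite sides of zero, and in both the groups overlapped. Rpp30 had 12.2, 14.8 and 13.4 FPKM with exosomes, against 14.02, 12.2 and 14.3 FPKM with PBS (log2 change 0.00 to 2 decimals, 95% interval −0.18 to 0.17). Pop1, Pop7, Rpp25l, Rpp38 and Rpp40 had log2 changes of −0.06, −0.04, −0.06, 0.09 and −0.05. Pop4 passed without exosome replicate 3 (adjusted p = 0.0408), without PBS replicate 1 (adjusted p = 0.0394) and with upper quartile scaling (adjusted p = 0.0427). Pop5 passed without exosome replicate 1 (adjusted p = 0.0423) and without PBS replicate 2 (adjusted p = 0.0319). Both passed, in their opposite directions, with replicate number added to the fit (adjusted p = 0.033 for Pop4 and 0.0294 for Pop5).

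In the list of exonucleases and Drosha, 0 of 5 genes fell and 1 rose by limma. At an unadjusted p under 0.05 Rexo1 was lower as well. Other nucleases of the term, such as Nob1, which fell, and Fcf1, are in the lists above. Drosha, the nuclease known for cutting microRNA precursors, had 16.1, 15.5 and 15.7 FPKM with exosomes, against 14.3, 14.2 and 14.5 FPKM with PBS (log2 change 0.13 ± 0.04, adjusted p = 0.0418). It was higher in every exosome library than in any PBS library, by a small margin. The call was lost when each of the 6 libraries was left out in turn (adjusted p = 0.0682 without PBS replicate 3, 0.0658 without exosome replicate 2, 0.0875 without PBS replicate 2, 0.089 without exosome replicate 3, 0.106 without PBS replicate 1 and 0.109 without exosome replicate 1). It was also lost with median of ratios scaling, without limma's trend and robust estimation, and with replicate number added to the fit (adjusted p = 0.106, 0.0515 and 0.0961). The authors' deposited table did not call Drosha (adjusted p = 0.31). Rexo1 had 5.47, 5.65 and 5.89 FPKM with exosomes, against 6.63, 6.28 and 6.02 FPKM with PBS (log2 change −0.13 ± 0.06, adjusted p = 0.0896), and Rexo2, an exonuclease of short RNA, had 21.1, 19.2 and 19.1 FPKM with exosomes, against 21.7, 20.2 and 23.1 FPKM with PBS (log2 change −0.12 ± 0.06, adjusted p = 0.132). Xrn1 and Xrn2, the main 5′ to 3′ exonucleases of cytoplasm and nucleus, had log2 changes of 0.06 ± 0.06 and −0.06 ± 0.05. Rexo1 was lower in the authors' deposited table (adjusted p = 0.0183).

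Of the 7 members not tested, Rpp25, Nxf7, Rasl2-9 and Fbll1 were listed at 0 in all 6 libraries. Nxf2 was at most 0.0226 FPKM and 1700009N14Rik at most 0.0342 FPKM in any library. Nxf3, a relative of Nxf1, had 0.288, 0.244 and 0.192 FPKM with exosomes, against 0.167, 0.114 and 0.189 FPKM with PBS. No fold change is given for these genes.

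The PBS libraries were not alike across the pathway. PBS replicate 1 was the highest PBS library in 40 of the 68 tested members (58.8%, against 32.8% of all genes tested) and the lowest in 3 (4.41%, against 24.4%). PBS replicate 2 was the lowest in 42 (61.8%, against 32.5% of all genes tested) and PBS replicate 3 in 23 (33.8%, against 43.1%). Each exosome library was the lowest of its group in 17 to 27 members. Without PBS replicate 1 the count of lowered members was 24, and without PBS replicate 2 it was 35. Called in every alternative fit and in the authors' deposited table were 24 members. They included Fbl, Nop56 and Nop58 of the box C/D list, Dkc1, Gar1 and Nop10 of the H/ACA list, Gnl3, Mdn1, Ran and Xpo1. Leaving out the 9 tested members that share exons with another gene over at least 10% of their length or that have a named pseudogene (Ak6, Riok2, Rrp7a, Tbl3, Utp14a, Wdr3, Csnk2a1, Gtpbp4 and Utp14b) left 27 of 59 lowered, 1 raised and a median of −0.16, an alternative chosen after the data were seen.

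**Figure D4:**
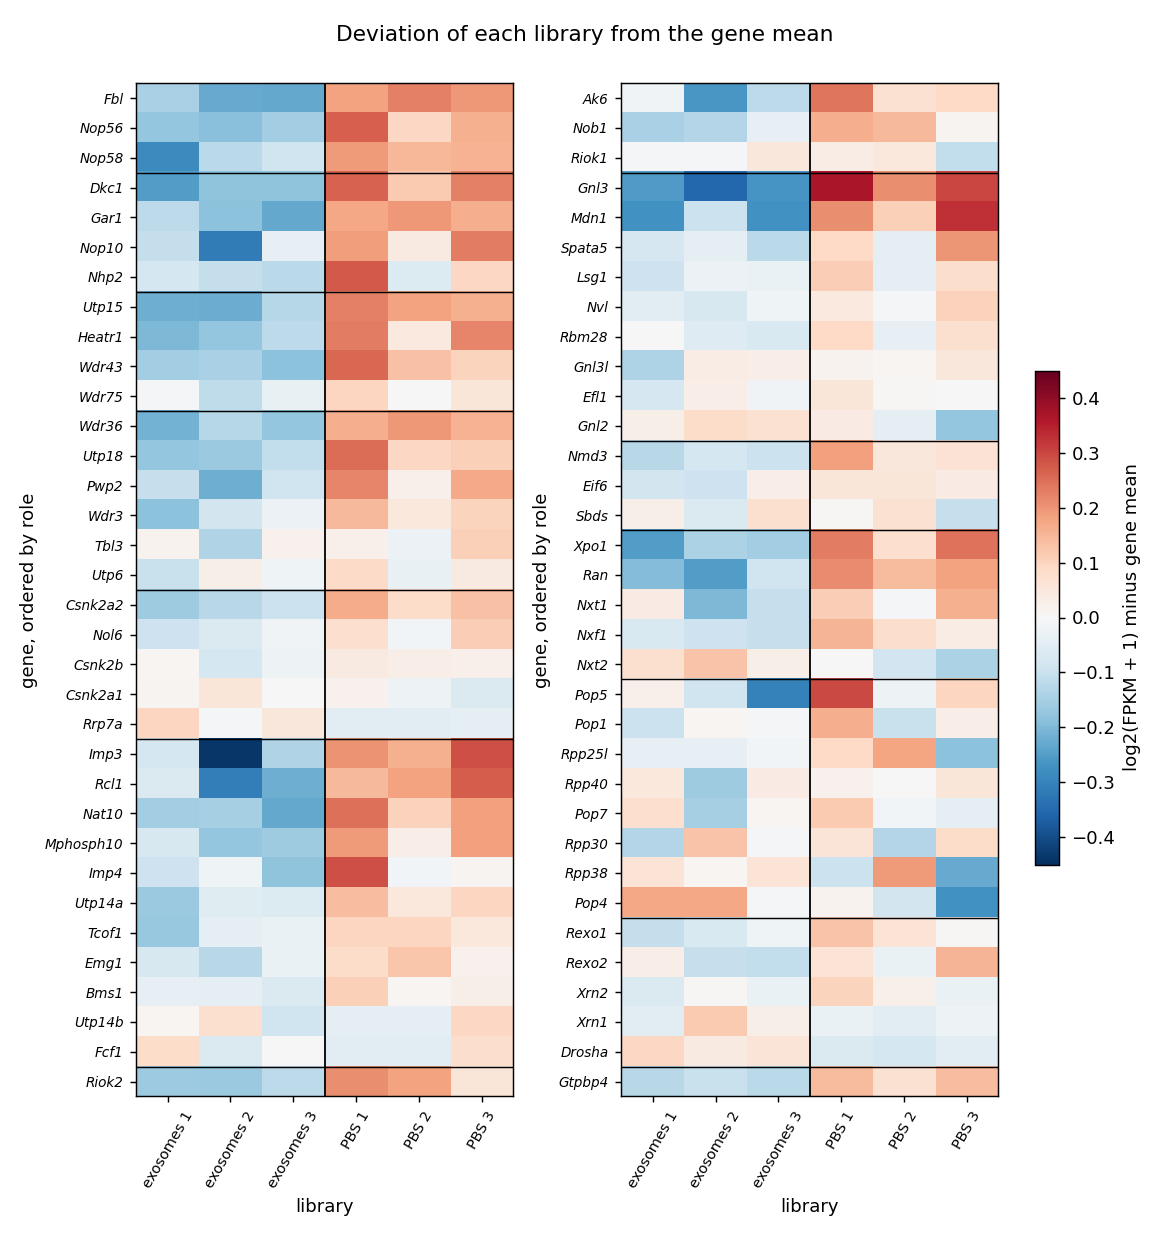
Deviation of each library from the gene's mean over the 6 libraries on the log2(FPKM + 1) scale (colour; blue below, red above) for the 68 tested genes, ordered by role, with exosome libraries left of the black line and PBS libraries right of it. Most snoRNP, t-UTP and UTP-B genes are blue in the exosome columns and red in the PBS columns, PBS replicate 1 is the highest PBS column in 40 genes, and both colours occur on both sides of the line among the RNase P and MRP genes.

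Genes of the same process that the pathway term did not mark were followed through lists of known assembly factors. These lists, too, were chosen with earlier results of these data known. Of all genes tested, 18.4% fell and 25.4% rose. Of 4 tested counterparts of the role lists above 3 fell. They were Rrp9, a U3 snoRNP protein (log2 change −0.56 ± 0.08, adjusted p = 0.000513), Cirh1a, another name for the t-UTP Utp4 (log2 change −0.36 ± 0.05, adjusted p = 0.000504), and Nhp2l1, the box C/D protein also called Snu13 (log2 change −0.19 ± 0.05, adjusted p = 0.0122). Nol11 of the t-UTP group had a log2 change of 0.04 ± 0.06 and did not pass, and Nhp2l1 lost its call without PBS replicate 1 (adjusted p = 0.0546). Of 40 further factors of the large subunit, 25 (62.5%) fell and 1 (2.5%) rose, with a median log2 change of −0.22. The 3 of smallest p were Mak16 (log2 change −0.46 ± 0.05, adjusted p = 0.000105), Ebna1bp2 (log2 change −0.36 ± 0.04, adjusted p = 0.00018) and Ppan (log2 change −0.38 ± 0.05, adjusted p = 0.00023). The single rise, that of Zfp622 (0.18 ± 0.05), was not called without exosome replicate 2 or PBS replicate 1. Of 35 further factors of the small subunit, 13 (37.1%) fell and 1 (2.86%) rose, with a median of −0.14. The falls were led by Tsr1 (log2 change −0.37 ± 0.05, adjusted p = 0.000411), Rrp12 (log2 change −0.41 ± 0.06, adjusted p = 0.000595) and Rrp8 (log2 change −0.38 ± 0.06, adjusted p = 0.000685). The single small subunit rise, Nol7 (0.24 ± 0.08), was not called without exosome replicate 2, exosome replicate 3 or PBS replicate 3. Nor was it called with no filter on low values or with replicate number added to the fit.

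Among 6 nucleolar scaffolds and chaperones 3 fell and 1 rose. Ddx21, an RNA helicase of the nucleolus, averaged 30.9 ± 0.338 FPKM with exosomes and 44.2 ± 2.68 FPKM with PBS (log2 change −0.50 ± 0.05, adjusted p = 8.87e-05), and Nolc1, a chaperone of snoRNPs, averaged 15.8 ± 0.519 FPKM with exosomes and 21.9 ± 1.101 FPKM with PBS (log2 change −0.44 ± 0.05, adjusted p = 0.000194). Gltscr2, now called Nop53, rose, with 88.04 ± 1.56 FPKM with exosomes and 68.6 ± 3.98 FPKM with PBS (log2 change 0.36 ± 0.05, adjusted p = 0.000487). RNA polymerase I and its factors gave 4 lowered (26.7%) and 2 raised (13.3%) of 15, against 18.4% and 25.4% of all genes tested. The list median was −0.08, and the 3 of smallest p were the subunits Polr1a (log2 change −0.36 ± 0.05, adjusted p = 0.000372), Cd3eap, now Polr1g (log2 change −0.43 ± 0.06, adjusted p = 0.000464), and Polr1b (log2 change −0.28 ± 0.08, adjusted p = 0.014). The RNA-degrading exosome complex, a nuclear enzyme complex that trims ribosomal RNA and has only its name in common with the vesicles, gave 4 lowered (28.6%) and 2 raised (14.3%) of 14. Its 3 of smallest p were Dis3, a catalytic subunit (log2 change −0.41 ± 0.06, adjusted p = 0.000562), Exosc6 (log2 change −0.55 ± 0.09, adjusted p = 0.00165) and Exosc4, which rose (log2 change 0.32 ± 0.06, adjusted p = 0.00342). Polr1b lost its call without exosome replicate 1 (adjusted p = 0.0521) or PBS replicate 1 (adjusted p = 0.0585), and 2 genes of the RNA polymerase I list fell without PBS replicate 1. Its rises, those of Ttf1 (0.24 ± 0.07) and Taf1b (0.24 ± 0.08), were both lost without exosome replicate 3 or PBS replicate 3, and at least 1 of them was lost whichever library was left out. Zfp622, Nol7, Ttf1 and Taf1b are named after their values were seen. Over these 5 outside lists together, 49 of 110 genes (44.5%) fell and 7 (6.36%) rose, with a median of −0.15.

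**Figure D5:**
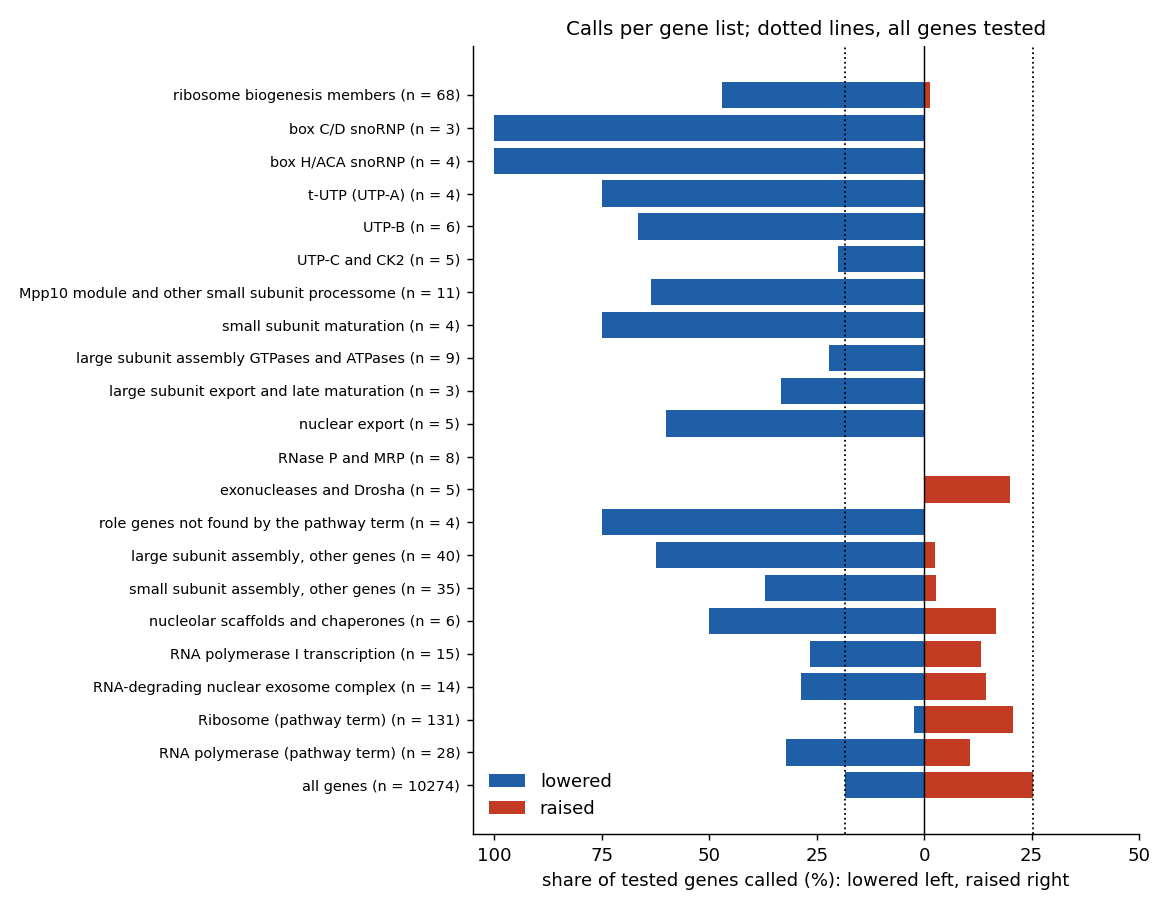
Share of tested genes called lowered (blue, left) and raised (red, right) in each role list, in the lists outside the pathway term and in the Ribosome and RNA polymerase terms (horizontal axis, %; n is the number tested). Dotted lines mark 18.4% lowered and 25.4% raised among all 10274 genes; the snoRNP lists reach 100% of 3 and of 4 genes, and RNase P and MRP have no call.

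The term "Ribosome", which holds mainly structural proteins of the finished ribosome, gave other counts. Of its 131 tested genes 3 (2.29%) fell and 27 (20.6%) rose, against 18.4% and 25.4% of all genes tested. Falls were thus scarcer than among all genes, while rises were not more frequent. The median log2 change was 0.10. Without exosome replicates 1 or 3 the number that rose was 15 or 13, and without PBS replicates 1 or 3 it was 14 or 13. The number that fell was 0 without exosome replicate 2, 5 without exosome replicate 3 and 1 without PBS replicates 1 or 3. The authors' deposited table called 2 of them lower and 6 higher. Of 28 genes of the term "RNA polymerase", 9 (32.1%) fell and 3 (10.7%) rose, with a median of −0.07. No test was made of the differences between these terms.

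Myc itself had 23.6, 23.02 and 22.7 FPKM with exosomes, against 37.1, 31.997 and 35.7 FPKM with PBS (log2 change −0.57 ± 0.06, adjusted p = 7.83e-05). Its groups did not overlap. Whether Myc has a part in the changes of the pathway was not tested.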

How the data were processed

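RNA of the 6 cell samples was made into stranded mRNA libraries and read from both ends, per the labels' protocols. Among the authors' tools, per the submitters' processing notes, were DESeq, HTSeq, Cufflinks, StringTie, HISAT2, Bowtie2, SAMtools and Trimmomatic, on build mm9, with no versions. No label or header states whether counting used strand. The authors deposited 1 expression value per gene and library, read here as FPKM because Cufflinks is named and the values scale with length; the header says only expression. The authors also deposited mean normalized counts per group (a signal), a linear fold ratio and DESeq p-values, per the file headers. Depth was estimated from the steps of those group means. Counts per library were not analysed here, so the FPKM test was used.

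Genes with at least 1 FPKM in 3 libraries were tested on log2(FPKM + 1), pseudocount 1, with limma 3.58.1 in R 4.3.3 (trend and robust, group as the only term, two-sided, Benjamini-Hochberg over 10274 genes, adjusted p under 0.05). A fold on this scale understates changes of low genes. Errors of FPKM are SD (n = 3), and those of log2 changes are standard errors. On simulated data of 10274 genes with 200 changed (5 draws), the test recovered 19.6% of log2 changes of 0.2, 50.8% of those of 0.3, 85.2% of those of 0.5 and 99.2% of those of 1, with 0.068% false calls. Gene names turned into dates were repaired in 27 rows by Entrez identifier. Overlaps come from GENCODE M21, and promoters from RefSeq; neither build is mm9, so file coordinates were not used. Members, role lists and motifs were chosen with earlier results of these data known. All 6 values are given for the 12 members of smallest p in each direction among those called, the 2 of smallest p and the most abundant in each role list, and called members without a list; outside the term, the 3 of smallest p per list and Myc are named.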

Additional observations from a re-analysis of the deposited data

How the results depend on the processing

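The count of lowered members was 24 to 35 when each library was left out in turn, against 32 with all, and within 1.5 times of 32 under every other alternative run. Raised members numbered 1 with all libraries, 3 with upper quartile scaling, 0 with median of ratios scaling, 0 without limma's trend and robust estimation, 0 in the authors' deposited table and 0 to 1 when each library was left out; the cause was not tested. The median log2 change was −0.16, −0.2272 in the authors' deposited table and −0.18 to −0.13 with a library left out. The change of Rpp30 turned sign with upper quartile scaling (0.0159) and ranged from −0.0721 to 0.0596 with a library left out. Raised genes made up 58.0% of all calls, 51.0% with median of ratios scaling, 63.2% with upper quartile scaling and 47.9% in the authors' deposited table. Same-numbered libraries did not deviate together (correlations −0.12, −0.02 and −0.29 over 10274 genes), and no library correlated best with the library of its own number, so the numbers were not taken to pair them. With the replicate block, 31 members were lowered, 29 of them shared with the fit without the block, and 1 was raised. The raised member was Pop4 (adjusted p = 0.033), while Drosha was not called (adjusted p = 0.0961). Pop5 and Nxt1, not called in the main fit, were called lower with the block (adjusted p = 0.0294 and 0.0496). Both were also called in some of the fits with a library left out. Over all genes 1626 were lowered and 2288 raised with the block. In the simulated data, where 200 of 10274 genes changed, log2 changes of 0.2 were mostly not recovered. In the real data 43.8% of genes were called, so that recovery does not measure the power of the real test. Members with changes as small as −0.15 (Emg1) were called lower. FPKM does not show counting error, so low genes such as Rpp38 are less certain.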

Other observations

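Gene Ontology terms in the deposited table, chosen after the table was seen, gave a further division of the pathway. Of all genes tested, 18.4% fell and 25.4% rose. Of the 42 tested members that carry the term nucleolus, 24 (57.1%) fell and 0 rose, with a median log2 change of −0.20. Of the 26 tested members without it, 8 (30.8%) fell and 1 (3.85%) rose, with a median of −0.08. Outside the pathway term, 159 (26.7%) of 596 tested genes with the term nucleolus fell and 106 (17.8%) rose, with a median of −0.02. Of 97 tested genes outside the pathway term that carry rRNA processing, 33 fell and 11 rose, with a median of −0.09. No test was made of the differences between these sets.

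Npm1, an abundant nucleolar histone chaperone named here after its values were seen, averaged 405 ± 9.49 FPKM with exosomes and 405 ± 27.7 FPKM with PBS (log2 change 0.00 ± 0.06, adjusted p = 0.98), while Ncl, nucleolin, averaged 89.9 ± 3.04 FPKM with exosomes and 106 ± 5.33 FPKM with PBS (log2 change −0.24 ± 0.05, adjusted p = 0.00439). Both belong to the list of nucleolar scaffolds and chaperones. Among all genes tested with a RefSeq promoter, 24.2% of the 1029 with CACGTG in that window fell, as did 17.5% of the 7322 without it.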
